A study of Mus musculus with 18 samples.

Results

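Heparan sulfate is a sulfated sugar chain carried by proteins at the cell surface and in the matrix, where it binds growth factors such as fibroblast growth factors, Wnts, Hedgehogs and bone morphogenetic proteins. Glypicans are core proteins held on the outer membrane by a lipid anchor. Heparanase cuts the chains, and the sulfatases Sulf1 and Sulf2 remove 6-O-sulfate groups from them outside the cell. In bone, these enzymes and carriers are known to set which signals reach osteoblasts and their precursors.

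The 10 mouse genes of these groups were examined among the 43346 genes of the expression table: the 2 heparanase family genes (Hpse and Hpse2), the 2 sulfatases and the 6 glypicans (Gpc1 to Gpc6). They were chosen by gene family after the RNA values of the same libraries were known, in which Hpse was among the genes that differed most between the arms. The differences in their RNA between arms and their peaks are therefore given as a description, with no test. Tests are given only for other genes, those of the heparan sulfate pathway and of marker lists of cell types. These lists were also drawn up with earlier results of these data known.

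The cells were MC3T3-E1 subclone 4 at passage 9, a clonal pre-osteoblast line from the calvaria of C57BL/6 mice. All were in osteogenic medium with ascorbic acid and β-glycerol phosphate. The DMSO arm received 0.25% DMSO for 3 days, and the EPZ6438 arm received 2.5 µM EPZ6438 for 3 days. EPZ6438 blocks EZH2, the enzyme that places the repressive mark H3K27me3. The labels do not state whether the EPZ6438 arm also held DMSO, so vehicle and inhibitor cannot be told apart by the labels. RNA came from 3 samples per arm. H3K27me3 and H3K4me3, a mark of active promoters, came from 2 samples per mark and arm, merged by the authors into 1 peak list per mark and arm. A line that is 1 clone limits how far the values speak for bone cells in general.

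Library totals ranged from 18807156 to 25365513 reads in genes, and 18289 to 19196 genes had a read. RNA levels are in RPKM, the reads per 1000 bases of gene length and 1000000 reads in genes. All 12 osteoblast markers were measured well enough to test, and 7 rose and 1 fell with EPZ6438 (limma, adjusted p under 0.05). Over all 14213 tested genes, 3.80% rose and 3.24% fell. The summed level of the 10 blood markers was 15.6 to 18.5 RPKM in DMSO and 18.8 to 21.7 RPKM in EPZ6438, with no overlap, and most of it was Lyz2, at 15.6 ± 1.52 and 18.5 ± 1.21 RPKM. That of the 8 endothelial markers was 0.0784 to 0.121 and 0.0768 to 0.118 RPKM, and that of the 8 fat cell markers 0.345 to 0.616 and 0.161 to 0.268 RPKM, the latter with no overlap. Most of the fat cell sum was Pparg, at 0.304 ± 0.0686 and 0.126 ± 0.0420 RPKM, with no overlap. Of these 3 lists 4 genes could be tested, 3 blood markers and 1 endothelial marker, and no fat cell marker. Of these 4, 0 passed, by limma on RPKM or by voom, with 1 and 0 at an unadjusted p under 0.05. Cd3e, Hba-a1, Hbb-bs, Cdh5, Kdr, Emcn, Cldn5, Pck1 and Cfd had 0 reads. Of the 12 cartilage markers, 7 could be tested and 5 rose, and their summed level was 89.0 to 112.2 RPKM in DMSO and 207.4 to 255.5 RPKM in EPZ6438, with Acan at 0. Of the 9 smooth muscle and myofibroblast markers, 7 could be tested, 1 rose and 1 fell, and their sum was 2420 to 2587 RPKM in DMSO and 1891 to 1905 RPKM in EPZ6438. Most of that sum was Acta2, the gene that fell, at 2097 ± 66.5 and 1510 ± 12.5 RPKM. Des, the gene that rose, averaged 0.811 ± 0.200 and 1.56 ± 0.190 RPKM. The part of these shifts in the differences below was not tested. In bulk RNA, fewer cells of a type and less RNA per cell cannot be told apart.

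Start sites and the 250 bases before them were taken from RefSeq (GRCm38.p6, the same assembly as mm10) for the 7 genes with an entry in its promoter table, Hpse, Hpse2, Sulf2, Gpc2, Gpc3, Gpc4 and Gpc5. The promoters of 4 are printed because they cover the chromatin states found: Hpse had no peak of either mark at its start, Hpse2 had H3K27me3, Gpc4 had H3K4me3 in both arms, and Sulf2 had H3K4me3 in the EPZ6438 list alone. Of the 2 promoter entries of Sulf2, the entry under that peak is printed. Each runs 5′ to 3′ toward the start, all 4 lie on the minus strand, and CG dinucleotides are in capitals.
Hpse, chr5:100719717-100719966: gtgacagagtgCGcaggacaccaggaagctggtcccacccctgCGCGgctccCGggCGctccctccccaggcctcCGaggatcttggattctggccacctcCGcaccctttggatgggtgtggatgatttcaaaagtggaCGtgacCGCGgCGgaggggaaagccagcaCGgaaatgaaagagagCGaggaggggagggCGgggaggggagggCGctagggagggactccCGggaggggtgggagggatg
Hpse2, chr19:43388356-43388605: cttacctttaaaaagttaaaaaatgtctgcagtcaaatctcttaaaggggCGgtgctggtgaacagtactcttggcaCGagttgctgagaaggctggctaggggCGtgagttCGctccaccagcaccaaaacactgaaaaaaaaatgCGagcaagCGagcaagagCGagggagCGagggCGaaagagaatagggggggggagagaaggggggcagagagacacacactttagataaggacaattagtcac
Sulf2, chr2:166155286-166155535: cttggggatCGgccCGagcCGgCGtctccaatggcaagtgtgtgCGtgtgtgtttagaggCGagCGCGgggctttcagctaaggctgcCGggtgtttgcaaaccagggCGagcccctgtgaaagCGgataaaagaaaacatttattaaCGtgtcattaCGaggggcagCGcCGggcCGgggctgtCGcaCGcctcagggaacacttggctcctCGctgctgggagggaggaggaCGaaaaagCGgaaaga
Gpc4, chrX:52164924-52165173: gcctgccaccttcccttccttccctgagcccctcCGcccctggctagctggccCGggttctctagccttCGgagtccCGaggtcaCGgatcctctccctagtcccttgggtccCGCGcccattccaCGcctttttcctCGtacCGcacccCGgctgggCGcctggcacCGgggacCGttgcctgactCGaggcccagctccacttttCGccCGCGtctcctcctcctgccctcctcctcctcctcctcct
The Hpse promoter held 16 CG dinucleotides and was 66.8% G or C. The Hpse2 promoter held 9 and was 50.0% G or C, the printed Sulf2 promoter held 21 and was 60.0%, and the Gpc4 promoter held 18 and was 68.4%. The median over all 32851 promoters of the table was 6 CG dinucleotides and 52.4% G or C, so all 4 were above the median in CG number. The letters GGGCGG, searched on both strands, occurred 1 time each in the Hpse, Hpse2 and Gpc4 promoters and in 32.7% of all promoters. The letters TATAAA, searched on both strands, were in none of the 4 windows and in 12.4% of all promoters. The Sulf2 entry that is not printed held GGGCGG and TATAAA 1 time each. The 2 motifs do not overlap each other, and a match of letters is a description only.

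Hpse encodes heparanase, an endoglycosidase that cuts heparan sulfate chains within the chain and releases the factors bound to them. Its RNA was low in DMSO and high in EPZ6438. Hpse (ENSMUSG00000035273, chr5:100679484-100719716 in mm10) stood at 0.514, 0.486 and 0.549 RPKM in DMSO replicates 1, 2 and 3, from 34, 38 and 49 reads. In EPZ6438 replicates 1, 2 and 3 it stood at 6.66, 5.28 and 5.45 RPKM, from 493, 448 and 384 reads. Every EPZ6438 library lay above every DMSO library. The means were 0.517 ± 0.0316 and 5.80 ± 0.754 RPKM (SD, n = 3 each), an 11.2-fold ratio. On the scale of log2(RPKM + 0.1) the difference was 3.25 (SE 0.15), rank 4 from the highest of 14213 genes. These values are part of what chose the genes. On this scale the difference depended on the added constant and was 2.16 with 1 RPKM added.

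**Figure D1:**
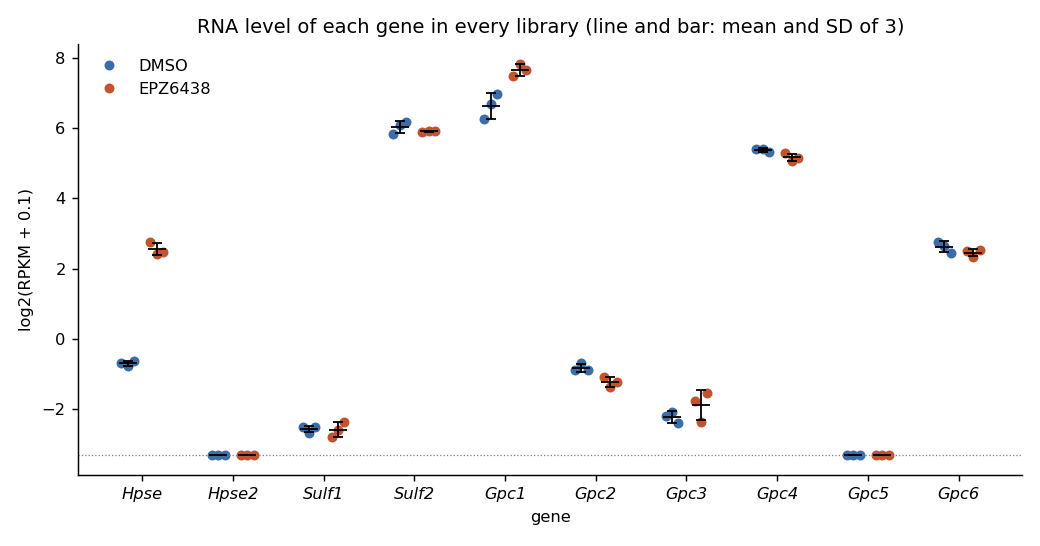
RNA level of the 10 genes in every library, as log2(RPKM + 0.1) on the y axis, with DMSO in blue and EPZ6438 in orange. Points are libraries, the line and bar are the mean and SD of 3, and the dotted line marks 0 RPKM; Hpse and Gpc1 are higher in all EPZ6438 libraries, while Hpse2 and Gpc5 sit at 0 in all 6.

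Hpse2 encodes heparanase 2, a relative that binds heparan sulfate but lacks the cutting activity. Hpse2 (ENSMUSG00000074852, chr19:42788947-43388311) had 0 reads in all 6 libraries. With 3 reads as the limit that a count of 0 allows, its level was below 0.0664 to 0.0896 RPKM, depending on the library. The 2 heparanase genes therefore differed in whether RNA was detected in either arm. Such limits cover counting error only.

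The genes whose values over the 6 libraries ran closest to those of Hpse were Slc8a3, Cd200, Hoxb13, Ifitm5 and Slc6a4, by root mean square difference in log2(RPKM + 0.1) after removing each gene's mean. That difference was 0.16 for Slc8a3, 0.22 for Cd200, 0.23 for Hoxb13, 0.25 for Ifitm5 and 0.26 for Slc6a4. Slc8a3, a sodium-calcium exchanger, averaged 0.805 ± 0.0575 RPKM in DMSO and 9.13 ± 0.398 RPKM in EPZ6438 (SD, n = 3 each). Slc6a4, the serotonin transporter, averaged 0.109 ± 0.0269 and 1.42 ± 0.118 RPKM. These 5 genes were picked for likeness to Hpse over the same 6 libraries, so their difference between arms is no further evidence.

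The sulfatases remove 6-O-sulfates from heparan sulfate at the cell surface, which alters binding of Wnts and fibroblast growth factors. Sulf2 (ENSMUSG00000006800, chr2:166073089-166155663) was abundant, and Sulf1 (ENSMUSG00000016918, chr1:12692277-12861192) was low. Sulf2 stood at 57.1, 68.5 and 71.6 RPKM in DMSO replicates 1 to 3 and at 59.0, 60.8 and 60.0 RPKM in EPZ6438 replicates 1 to 3. All EPZ6438 values lay inside the DMSO range, and the log2 difference was -0.13 (SE 0.10). Sulf1 stood at 0.0753, 0.0558 and 0.0733 RPKM in DMSO and 0.0421, 0.0660 and 0.0929 RPKM in EPZ6438, from 10 to 21 reads per library. Its arms overlapped, its log2 difference was -0.02 (SE 0.21), and the sign turned in some fits that left out 1 library (-0.13 to 0.09). In RPKM, Sulf2 exceeded Sulf1 by a ratio of 987 ± 235 in DMSO and 990 ± 383 in EPZ6438 (SD, n = 3 each). The end of Ncoa3, at 7.90 ± 0.693 and 8.25 ± 0.292 RPKM, overlaps Sulf2 by 154 bp.

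Among the glypicans, Gpc1 was the most abundant in all 6 libraries. Glypican 1 is a heparan sulfate carrier that binds fibroblast growth factors and bone morphogenetic proteins. Gpc1 (ENSMUSG00000034220, chr1:92831645-92860779) stood at 75.9, 103.3 and 125.2 RPKM in DMSO replicates 1, 2 and 3 and at 179.4, 228.9 and 203.8 RPKM in EPZ6438 replicates 1, 2 and 3. All EPZ6438 libraries were above all DMSO libraries, although the DMSO libraries spread widely. The means were 101.5 ± 24.7 and 204.1 ± 24.8 RPKM (SD, n = 3 each), a 2.01-fold ratio, and the log2 difference was 1.03 (SE 0.18), rank 271 of 14213. In DMSO the order of Gpc1 followed that of the library totals (18807156, 22221007 and 25365513 reads). In EPZ6438 the totals were 21044111, 24140050 and 20023137 reads and the orders differed. The part of depth in the Gpc1 values was not tested. Leaving out 1 library at a time gave log2 differences from 0.84 to 1.20.

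Gpc4 and Gpc6 were the next glypicans in level. Glypican 4 and glypican 6 belong to the same branch of the family as glypican 1, and Gpc6 is known for its role in growth of the skeleton. Gpc4 (ENSMUSG00000031119, chrX:52053021-52165252) stood at 42.4, 42.5 and 39.5 RPKM in DMSO and 38.8, 33.3 and 35.4 RPKM in EPZ6438. All EPZ6438 libraries were below all DMSO libraries, by a log2 difference of -0.21 (SE 0.08). Gpc6 (ENSMUSG00000058571, chr14:116925297-117979529) stood at 6.72, 6.16 and 5.35 RPKM in DMSO and 5.58, 4.92 and 5.66 RPKM in EPZ6438. The arms of Gpc6 overlapped, with a log2 difference of -0.17 (SE 0.12).

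Gpc2, Gpc3 and Gpc5 were low or at 0. Glypican 2 is best known from developing neurons, and loss of glypican 3 causes an overgrowth syndrome with skeletal changes. Gpc2 (ENSMUSG00000029510, chr5:138264952-138280005) stood at 0.435, 0.520 and 0.441 RPKM in DMSO and 0.372, 0.284 and 0.325 RPKM in EPZ6438, from 54 to 96 reads. All EPZ6438 libraries were lower, by a log2 difference of -0.41 (SE 0.17), which shrank to -0.14 with 1 RPKM added. Gal3st4 overlaps Gpc2 by 7889 bp and averaged 1.19 ± 0.121 RPKM in DMSO and 0.835 ± 0.112 RPKM in EPZ6438. The strand setting of the counting is not given in the sources used here, so reads of Gpc2 and Gal3st4 cannot be told apart. Gpc3 (ENSMUSG00000055653, chrX:52272426-52613950) had 6 to 13 reads per library, at 0.119, 0.134 and 0.0879 RPKM in DMSO and 0.194, 0.0924 and 0.241 RPKM in EPZ6438, and its arms overlapped. Gpc3 fell short of the minimum for the fit. It overlaps the antisense gene A630012P03Rik, at 0.704 ± 0.104 and 1.09 ± 0.364 RPKM, by 38108 bp, so its few reads are uncertain. Gpc5 (ENSMUSG00000022112, chr14:115092215-116525179) had 0 reads in all 6 libraries, which allows up to 0.0266 to 0.0358 RPKM.

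The summed RNA of the 6 glypicans was 149.6 ± 22.7 RPKM in DMSO and 245.8 ± 21.6 RPKM in EPZ6438 (SD, n = 3 each). Gpc1 made up 67.2% ± 6.47 of it in DMSO (60.5% to 73.4%) and 82.9% ± 2.81 in EPZ6438 (80.0% to 85.6%). Gpc4 made up 28.3% ± 5.29 and 14.7% ± 2.43. The ratio of Gpc1 to Gpc4 was 1.79 to 3.17 in the DMSO libraries and 4.62 to 6.87 in the EPZ6438 libraries, with no overlap.

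**Figure D2:**
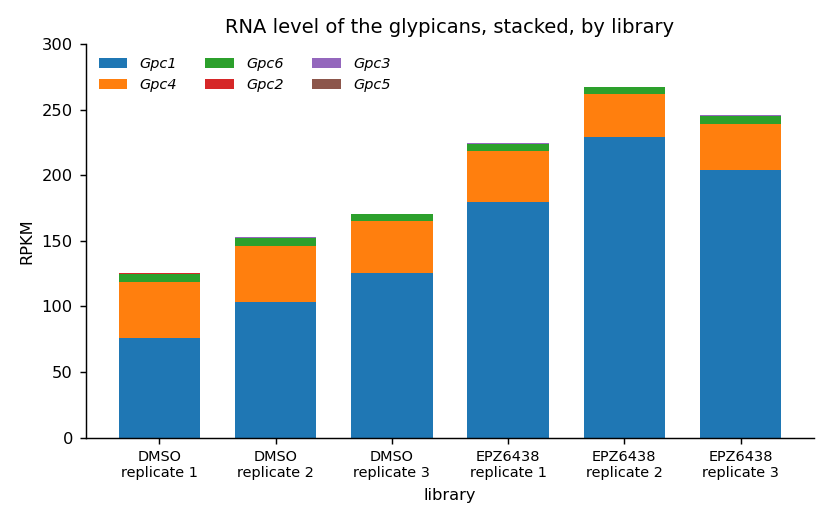
Stacked RNA level of the 6 glypicans in RPKM on the y axis, 1 bar per library on the x axis. Gpc1 is the largest share of each bar, from 60.5% to 73.4% in DMSO and from 80.0% to 85.6% in EPZ6438, and Gpc2, Gpc3 and Gpc5 are too low to be seen.

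In DMSO the 10 genes ranked, by mean RPKM, Gpc1, Sulf2, Gpc4, Gpc6, Hpse, Gpc2, Gpc3, Sulf1, then Hpse2 and Gpc5 at 0. The library ranges of Hpse and Gpc2 overlapped, and those of the other neighbours above 0 did not. In EPZ6438 Hpse ranked above Gpc6, but their ranges overlapped, as did those of Gpc3 and Sulf1. The ratio of Hpse to Gpc6 was 0.0860 ± 0.0144 in DMSO and 1.08 ± 0.115 in EPZ6438.

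Of the 10 genes, 7 had at least 10 reads in at least 3 libraries and entered the fit, 2 had 0 reads and Gpc3 was below the minimum. Every EPZ6438 library was above every DMSO library for 2 of the 7 (Hpse and Gpc1) and below for 2 (Gpc2 and Gpc4). Over all 14213 genes in the fit the shares were 12.0% above and 14.7% below. The median log2 difference of the 7 was -0.13, against -0.03 over all genes in the fit. Since the genes were chosen with this contrast known, nothing is read from these counts.

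H3K27me3, the mark that EZH2 writes, was listed over 8 of the 10 genes plus 10 kb to each side in DMSO and over 4 in EPZ6438. Sulf2 and Gpc4, which are abundant, had no H3K27me3 peak in either list. The DMSO list had a peak over 64.1% of the 22019 protein-coding genes with the same flanks, and the EPZ6438 list over 21.3%. A long window can meet more peaks, and these windows reached 1453 kb (Gpc5). By share of the window covered in DMSO, the median was 0.669% over the 10 genes and 1.09% over the protein-coding genes. Over the 10 genes the DMSO list held 145 peaks and the EPZ6438 list 25. Of the 145, 14 (9.66%) were overlapped by an EPZ6438 peak, against 15532 of 143399 (10.8%) in the whole list. The whole lists covered 89.4 Mb in DMSO and 11.6 Mb in EPZ6438. Each list stands alone, without replicates, peak heights or known depth, so no error can be given for these numbers.

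**Figure D3:**
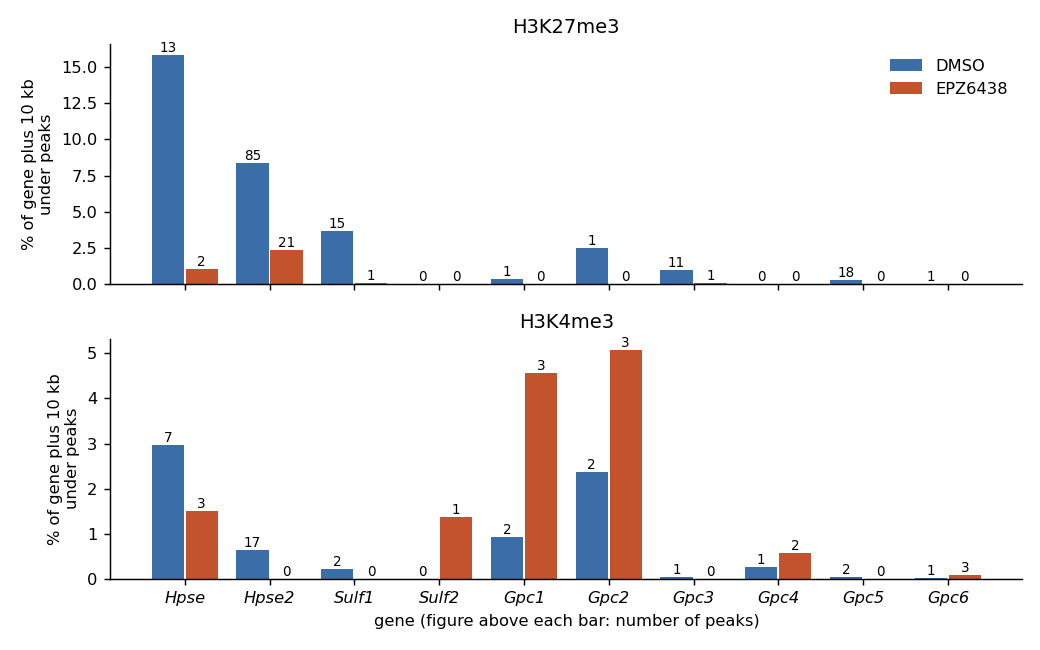
Share of each gene plus 10 kb that lies under peaks, in percent on the y axis, for H3K27me3 (top) and H3K4me3 (bottom), with DMSO in blue and EPZ6438 in orange and the number of peaks above each bar. Hpse has the largest H3K27me3 share in DMSO, 15.8%, and 1.08% in EPZ6438.

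Over Hpse, 13 H3K27me3 peaks of the DMSO list covered 9516 bp, or 15.8% of the 60.2 kb window. That share was at percentile 93.0 of the protein-coding genes. The widest peak, chr5:100695371-100698841, was 3471 bp and lay inside the gene. The peak nearest to the start site was 2817 bp away, also inside the gene. The EPZ6438 list held 2 peaks over Hpse, covering 651 bp (1.08%), and both overlapped DMSO peaks. That smaller share was still at percentile 87.1 of the protein-coding genes, of which 21.3% had a peak in the EPZ6438 list.

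Over Hpse2, which had no reads in either arm, 85 H3K27me3 peaks covered 51866 bp (8.37% of 619.4 kb) in DMSO and 21 covered 14567 bp (2.35%) in EPZ6438. A 1278 bp peak of the DMSO list lay across the start site and all 250 bases of the printed promoter. In EPZ6438 an 831 bp peak, 221 bp from the start site, covered 30 of these bases. Among the 7 genes with a known start, Hpse2 was the only gene with H3K27me3 within 1 kb of it, in both arms. The corresponding shares of 15855 protein-coding genes were 11.6% in DMSO and 2.66% in EPZ6438.

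Sulf1 had 15 H3K27me3 peaks (6903 bp, 3.65% of its window) in DMSO and 1 (185 bp) in EPZ6438, with low RNA in both arms. Gpc5 had 18 peaks (4565 bp, 0.314%) and 0, with no reads in either arm. Gpc3 had 11 peaks (3510 bp, 0.971%) and 1 (191 bp). Gpc1 had 1 peak of 180 bp in DMSO, before its lower-coordinate end, and 0 in EPZ6438. Gpc2 had 1 peak of 882 bp in DMSO, outside the gene, 4453 bp before its start and 3881 bp from the start of Stag3. Gpc6 had 1 peak of 168 bp in DMSO, and neither Gpc2 nor Gpc6 had a peak in EPZ6438. Loss of listed H3K27me3 between the lists was thus seen for genes with and without RNA in EPZ6438.

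H3K4me3 was listed over 9 of the 10 genes plus 10 kb in DMSO, all but Sulf2, and over 6 in EPZ6438. The shares of protein-coding genes were 61.1% and 51.7%. By share of the window covered, the median over the 10 genes was 0.244% in DMSO and 0.321% in EPZ6438. Over the protein-coding genes it was 0.431% and 0.236%. The median width of an H3K4me3 peak was 212 bp in the DMSO list and 401 bp in the EPZ6438 list. Of the 35 DMSO peaks over the 10 genes, 25 (71.4%) overlapped an H3K27me3 peak of the same arm. In the whole DMSO list this share was 48.0% (19247 of 40113). Most of the 25 lay over Hpse2 (15) and Hpse (6), and none over Gpc1, Gpc2, Gpc4 or Gpc6, so the share is not one of the group. At start sites, 1 of the 7 genes had H3K4me3 within 1 kb in DMSO (Gpc4) and 2 in EPZ6438 (Gpc4 and Sulf2), against 34.1% and 44.8% of protein-coding genes.

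No H3K4me3 peak of either list reached the Hpse start site. In DMSO, 7 peaks lay over Hpse plus 10 kb, of which 6 overlapped H3K27me3 peaks, and the nearest to the start was 2789 bp away. The 3 peaks of the EPZ6438 list lay 44756 bp or more from the Hpse start and within 508 bp of the start of the neighbour Coq2. Coq2 RNA was 11.0 ± 0.412 RPKM in DMSO and 10.5 ± 0.626 RPKM in EPZ6438. The 11.2-fold ratio of Hpse RNA was thus not accompanied by a listed H3K4me3 peak at its annotated start. Hpse2 had 17 H3K4me3 peaks in DMSO, 15 of them overlapping H3K27me3, and 0 in EPZ6438.

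Sulf2, at similar RNA in both arms, had no H3K4me3 peak in DMSO and 1 of 1405 bp in EPZ6438 (chr2:166154157-166155561), which covered all 250 bases of the printed promoter and 0 bases of the other entry (chr2:166155684-166155933). The presence of that peak in 1 list was not matched by a difference in RNA beyond the spread of the libraries. The H3K4me3 lists also differed as a whole, with 40113 peaks of median width 212 bp in DMSO and 16216 of 401 bp in EPZ6438. The part of this in the differences at Sulf2 and at the genes below was not tested. Gpc4 had a 344 bp peak in DMSO and peaks of 341 and 409 bp in EPZ6438, and the promoter lay wholly under the 344 and 409 bp peaks. Gpc1, without a promoter entry, had 2 peaks near its lower-coordinate end in DMSO (192 and 267 bp) and 3 there in EPZ6438 (491, 776 and 973 bp). The covered length at Gpc1 was 459 bp in DMSO and 2240 bp in EPZ6438. Gpc6 had 2 EPZ6438 peaks of 229 and 316 bp from 388 bp inside its lower-coordinate end, and no DMSO peak there. The H3K4me3 peaks over Gpc2 plus 10 kb lay within 755 bp of the starts of Lamtor4 and 6330418K02Rik and at least 15413 bp from that of Gpc2.

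**Figure D4:**
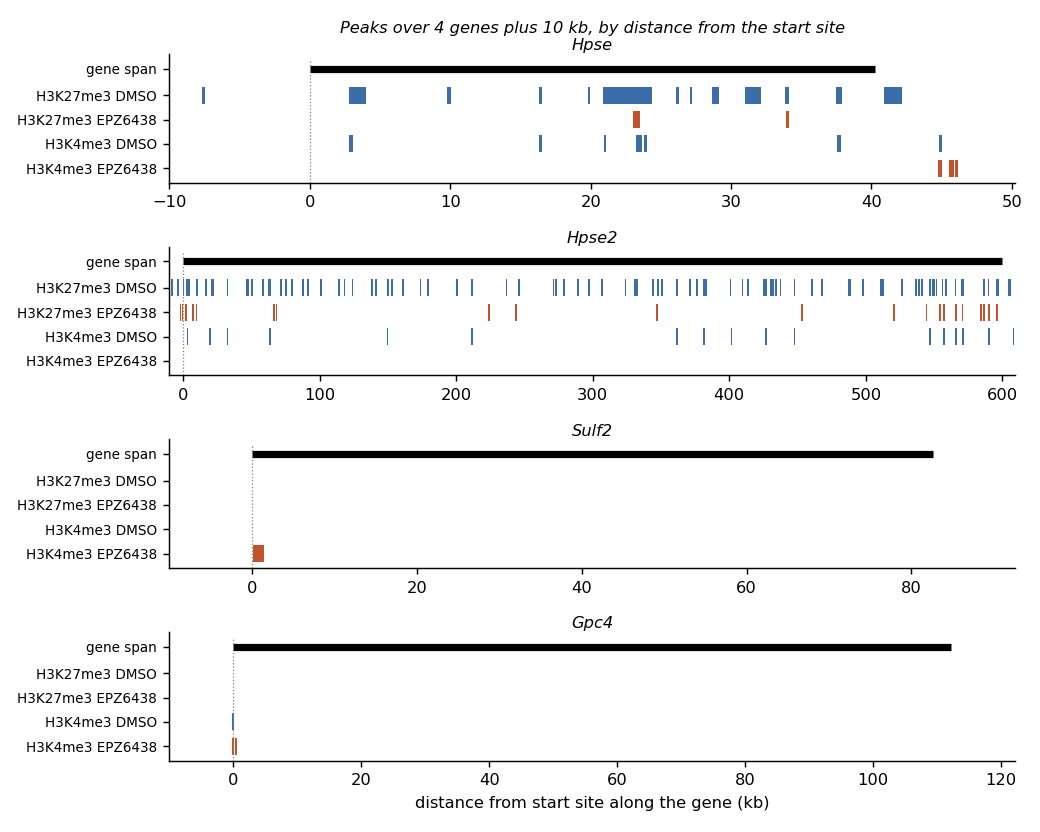
Peaks of the 4 lists over Hpse, Hpse2, Sulf2 and Gpc4 plus 10 kb, by distance in kb from the start site along the gene on the x axis, with 1 row per list and the gene span in black; the shortest peaks are drawn wider than they are so that they can be seen. Hpse carries 13 H3K27me3 peaks in DMSO and 2 in EPZ6438. Gpc4 carries H3K4me3 at the start in both arms, and Sulf2 carries it in EPZ6438 only, 122 bp from the start drawn.

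The rest of the heparan sulfate pathway was set beside these genes through 6 lists with 61 genes, none of them among the 10. Of 49 genes that could be tested, 6 rose, 4 fell and 39 did not pass (limma, adjusted p under 0.05), so 20.4% passed. Over all 14213 genes 540 rose (3.80%) and 461 fell (3.24%), 7.04% in all. The lists were drawn up with earlier results of these data known. These shares are therefore a description, and no enrichment is read from them. The median log2 difference over the 49 was -0.04, against -0.03 over all genes. Library by library, 7 of the 49 were higher in every EPZ6438 library and 12 lower, against 12.0% higher and 14.7% lower over all genes in the fit.

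Of the genes of glypican release and processing, 2 rose. Pcsk6, a proprotein convertase of the family that cleaves glypican precursors, rose from 3.36 ± 0.335 to 10.3 ± 0.738 RPKM (log2 difference 1.59, SE 0.12, limma adjusted p = 0.000704). Notum, a secreted esterase known for removing the lipid of Wnt proteins and first described as releasing glypicans, rose from 1.13 ± 0.304 to 2.82 ± 0.375 RPKM (1.27, SE 0.21, limma adjusted p = 0.0159). These were 2 of 6 tested genes of 7 listed, and the other 4 did not pass. The call for Pcsk6 held with each of the 6 libraries left out (limma adjusted p 0.00126 to 0.0112), while that for Notum was lost without DMSO replicate 2 or any of the EPZ6438 replicates (up to 0.0712). Calls over all genes also dropped in those fits, for example from 540 rose and 461 fell to 190 and 119 without EPZ6438 replicate 3. The part of this general drop in the calls lost there, for Notum or for the genes below, was not tested. Without DMSO replicate 1 or 3, calls over all genes changed little, to 522 and 459 and to 539 and 464. Of the genes below, Extl1, Hgsnat, Slc26a2 and Sdc4 also lost their call in either or both of these fits.

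Among 11 tested genes that build the linker and the chain, 2 rose and 9 did not pass. Pxylp1, a phosphatase that acts on the linker sugar xylose, rose from 6.86 ± 0.222 to 11.5 ± 0.0190 RPKM (log2 difference 0.74, SE 0.08, limma adjusted p = 0.0033), and its call held with each library left out (up to 0.0342). Extl1, a glycosyltransferase of the exostosin family, rose from 0.104 ± 0.0608 to 0.382 ± 0.0917 RPKM (1.27, SE 0.29, limma adjusted p = 0.0438), and its call was lost with any of the 6 libraries left out (0.0613 to 0.17). The log2 difference of Extl1 was 1.95 with 0.01 RPKM added, where its limma adjusted p was 0.0726 (0.127 with no filter), and 0.32 with 1 RPKM added. The chain polymerases Ext1 and Ext2 averaged 9.57 ± 0.542 and 21.1 ± 2.85 RPKM in DMSO and 11.2 ± 0.719 and 22.9 ± 0.57 RPKM in EPZ6438, and did not pass.

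Of 16 genes for chain sulfation and epimerisation, 6 could be tested and 1 fell. Hs6st2, a 6-O-sulfotransferase whose product the sulfatases act on, fell from 10.4 ± 1.17 to 6.61 ± 0.67 RPKM (log2 difference -0.64, SE 0.12, limma adjusted p = 0.0263). Its call was lost without DMSO replicate 2 or any EPZ6438 replicate (up to 0.13). Hs6st1 averaged 6.77 ± 0.247 and 5.83 ± 0.324 RPKM and did not pass. The other 10 genes, among them all listed 3-O-sulfotransferases, were too low to test.

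In precursor supply, 8 genes were tested, 1 rose and 1 fell. Papss2, which makes the sulfate donor, rose from 25.6 ± 2.28 to 40.1 ± 2.88 RPKM (log2 difference 0.64, SE 0.10, limma adjusted p = 0.0095). The call for Papss2 was lost where DMSO replicate 2 or either of EPZ6438 replicates 1 and 3 was left out (up to 0.0621). Slc26a2, a sulfate transporter, fell from 10.4 ± 1.18 to 7.04 ± 0.592 RPKM (-0.55, SE 0.12, limma adjusted p = 0.0394), and only leaving out DMSO replicate 3 kept its call (0.0215 to 0.172 over the 6).

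Of 8 other core proteins, Sdc4, the carrier syndecan 4, rose from 46.7 ± 3.05 to 60.2 ± 1.04 RPKM (log2 difference 0.37, SE 0.07, limma adjusted p = 0.0316). Tgfbr3, betaglycan, a co-receptor for transforming growth factor β, fell from 8.91 ± 0.193 to 6.39 ± 0.349 RPKM (-0.47, SE 0.09, limma adjusted p = 0.0259). The other 6 did not pass. Leaving out DMSO replicate 2 or any EPZ6438 replicate ended both calls, and leaving out DMSO replicate 3 ended that of Sdc4 as well (up to 0.166 for Sdc4 and 0.135 for Tgfbr3).

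All 10 genes listed for lysosomal breakdown of heparan sulfate were tested, and 1 fell. The list includes Sumf1 (log2 difference -0.27) and Sumf2 (0.02), which are not lysosomal breakdown enzymes. Neither passed, and the arms of both overlapped. Hgsnat, the acetyltransferase of this route, fell from 29.5 ± 2.17 to 21.9 ± 1.83 RPKM (log2 difference -0.43, SE 0.10, limma adjusted p = 0.041), a call that was lost with any library left out (0.0522 to 0.167). The median log2 difference of the 10 was -0.25, against -0.03 over all genes, and 9 did not pass. In 5 of the 10 every EPZ6438 library was lower, against 14.7% of all genes in the fit.

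**Figure D5:**
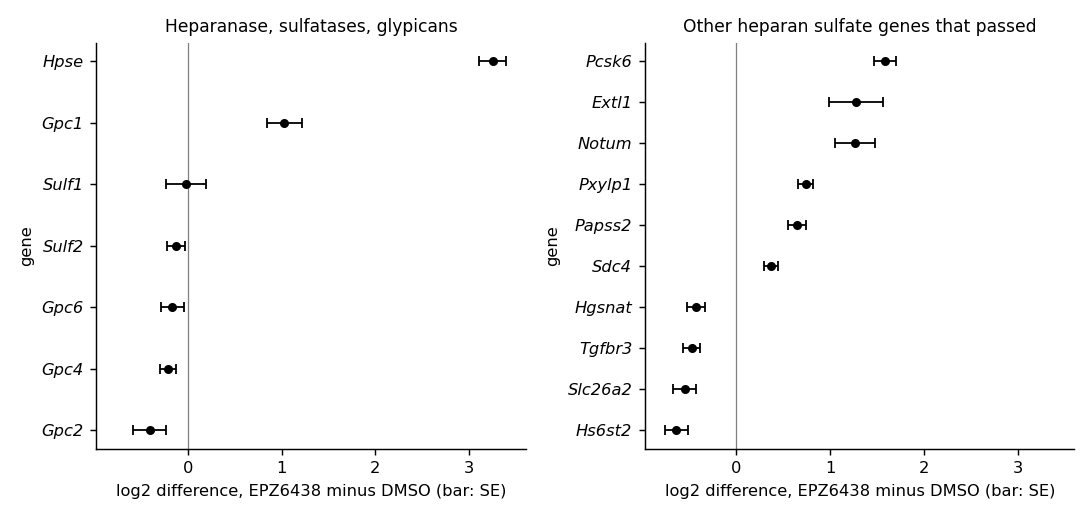
Log2 difference of RPKM + 0.1, EPZ6438 minus DMSO, on the x axis with its SE as a bar, for the 7 heparanase, sulfatase and glypican genes in the fit (left, a description) and the 10 other pathway genes that passed the test (right). Hpse lies at 3.25 and Gpc1 at 1.03 on the left, and Pcsk6 at 1.59 is the highest on the right.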

How the data were processed

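The authors deposited expression as RPKM for 43346 genes in 6 libraries, per the file headers, and 1 list of peak positions, deposited as other values without height or score, for each mark and arm. The submitters' processing notes name STAR 2.6.1c, Subread, bcl2fastq, FastQC, Picard, MACS2, DiffBind and HOMER as tools and mm10 as build, but not what each did. Peak thresholds, annotation release, strand setting and the way of merging were not given in the sources used here.

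From RPKM and gene length, whole reads were recovered for 100% of values (tolerance 0.001), hence library totals and limits of 3 reads. The 37 chrMT genes, all at 0, were left out. Genes with at least 10 reads in at least 3 libraries were fitted in R 4.3.3 by limma 3.58.1 (two-sided, with trend and empirical Bayes) on log2(RPKM + 0.1), which understates the change of low genes, with Benjamini-Hochberg adjustment over all 14213 genes. No replicate was a copy of another, since chi-square per gene between replicates was 6.47 to 61.7. The labels do not say that replicates were grown separately, so the p-values rest on a spread that may be technical only.

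Peaks were counted at 1 bp of overlap over each gene plus 10 kb, in pandas 2.3.3 and numpy 2.4.6 under Python 3.11.15, and drawn in matplotlib 3.10.9. Alternatives were pseudocounts of 0.01, 0.5 and 1 RPKM, no filter or a filter of 30 reads, median-of-ratios scaling, voom on recovered reads, a block for the replicate number, fits without each library in turn, other windows, peaks of at least 400 bp and 50% overlap. The genes and lists were chosen with earlier results of these data known. Named genes were all 10 genes, up to 4 passing genes per pathway list by adjusted p, the 5 nearest to Hpse, and overlapping or neighbouring genes. Ext1, Ext2, Hs6st1, Sumf1, Sumf2, Pparg, Acta2 and Des were added after their values were seen.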

Additional observations from a re-analysis of the deposited data

How the results depend on the processing

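The counts of pathway genes that rose (6) and fell (4) stayed within 1.5 times with other pseudocounts, the stricter filter, median-of-ratios scaling, voom and a replicate block. With no filter, where 23146 genes were tested, they were 3 and 1. Leaving out 1 library gave 2 to 5 that rose and 0 to 5 that fell in the same limma test. The count of 0 arose without DMSO replicate 2 or any EPZ6438 replicate, where 6 to 8 genes fell at an unadjusted p under 0.05. Over all genes, 540 rose and 461 fell in the main fit. Without DMSO replicate 2 these were 242 and 93, and without EPZ6438 replicates 1, 2 and 3 they were 214 and 167, 233 and 139, and 190 and 119. Without DMSO replicate 1 or 3 they were 522 and 459, and 539 and 464. The replicate block gave 6 and 4, and moved no count by over 1.5 times. Deviations from the arm mean correlated at 0.41, 0.0781 and 0.0561 between same-numbered samples, and at -0.405 to 0.331 between samples of different number. With 3 libraries per arm, these values cannot tell whether the numbers pair the samples. None of the 139 alternative values of the 10 named pathway genes turned direction, and 44 did not pass. Of 84 alternative log2 differences of the 7 fitted genes, 6 moved beyond the replicate SD, 4 for Hpse (2.16 to 3.46) and 2 for Gpc2, and 3, all of Sulf1, turned sign. Limited to 1 kb around both gene ends, the genes with H3K27me3 numbered 2 in DMSO and 1 in EPZ6438, and those with H3K4me3 in DMSO 3. With peaks of at least 400 bp, 2 had H3K27me3 in EPZ6438 and 3 had H3K4me3 in DMSO. Levels below about 10 reads, as for Gpc3, and the merged peak lists without depth limit what can be said of the low genes and of single peaks.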
